A study of Homo sapiens with 12 samples.

Results

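Ribosomes that run into the back of a stalled or slow ribosome form a disome, a pair packed so closely that RNase I cannot cut between them. The fragment protected by such a pair is about as long as the footprints of both ribosomes together, so it can be sized apart from the monosome footprint of a lone ribosome. Collisions of this kind also occur in unstressed cells, where slow decoding, stretches of proline codons, nascent chains that hold the exit tunnel and stop codons are known places of queuing, and ZNF598, GCN1 and the kinase ZAK are among the proteins that sense them. The comparison here sets disome footprints against monosome footprints of the same coding regions in untreated cells, and ranks coding regions by the ratio of disome to monosome counts.

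The coding regions were those that could be paired between the 2 annotations used by the disome and the monosome tables, were at least 100 codons long and had a mean of at least 10 CPM (counts per 1000000) in the monosome libraries. Of 76301 aligned pairs, from 93916 coding transcripts in the disome tables and 100283 in the monosome tables, 11145 met both limits. Pairs whose counts were the same in each of the 4 libraries, as isoforms with the same reads would be, were joined into 1, which left 9782 coding regions out of 41439 distinct aligned rows. Since isoforms can still share reads, counts are also given with the rows cut into blocks of 10 neighbours and only the coding region with the most monosome footprints kept per block, which left 3861.

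The disome group was 2 libraries of HEK293T Flp-In cells, labelled wild type and exposed to DMSO, the solvent, for 2 h. This line was derived from human embryonic kidney and carries a recombination site into which transgenes can be placed. The monosome group was 2 libraries of the same line, genotype and exposure. The series holds 12 libraries in all, and also gave girolline, a natural product of a marine sponge, at 1 or 10 µM for 2 h, with 1 library of each kind per dose, and RNA-seq of poly(A) RNA. All libraries come from 1 cell line, and nothing in the labels ties the libraries of a group to separate cultures, so p-values here cover the spread between libraries alone, which may be technical.

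The disome libraries held 3091715 and 5151900 counts, against 29278822 and 34873134 in the monosome libraries. A coding region had a median of 66 and 114 disome counts, against 654 and 781 monosome counts. Disome counting error was therefore the wider of the pair, and 44 coding regions had fewer than 10 disome counts over both libraries. The transcript IDs could not be paired with gene symbols (0 of the IDs of these coding regions were found in the gene tables used), so coding regions are described by ID, length and values, gene lists were not analysed, the cell line was not checked against marker genes, and no sequences are shown. Near-identical gene copies could not be recognised either, and values of coding regions that have such copies are uncertain.

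The disome to monosome ratio spread widely over coding regions and did so alike in both replicate numbers. Its median was -0.13 on the log2 scale, with the 25th and 75th percentiles at -0.75 and 0.38, and with 5% of them below -1.79 and 5% above 1.18. The zero of this scale is set by TMM, edgeR's trimmed mean scaling, which takes the bulk of aligned rows as equal, so the ratio says which coding regions had more or fewer disome footprints than the others and not what part of all ribosomes was queued. Taken from replicate 1 alone and replicate 2 alone, the ratios had a Spearman's rho of 0.928 across the 9782 coding regions, a description over regions that share their libraries. The SD over coding regions was 0.985 for the mean of both ratios, against 0.251 for a single ratio's replicate error. Both ratios differed by over 2-fold from each other in 119 coding regions, or 1.22%.

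**Figure D1:**
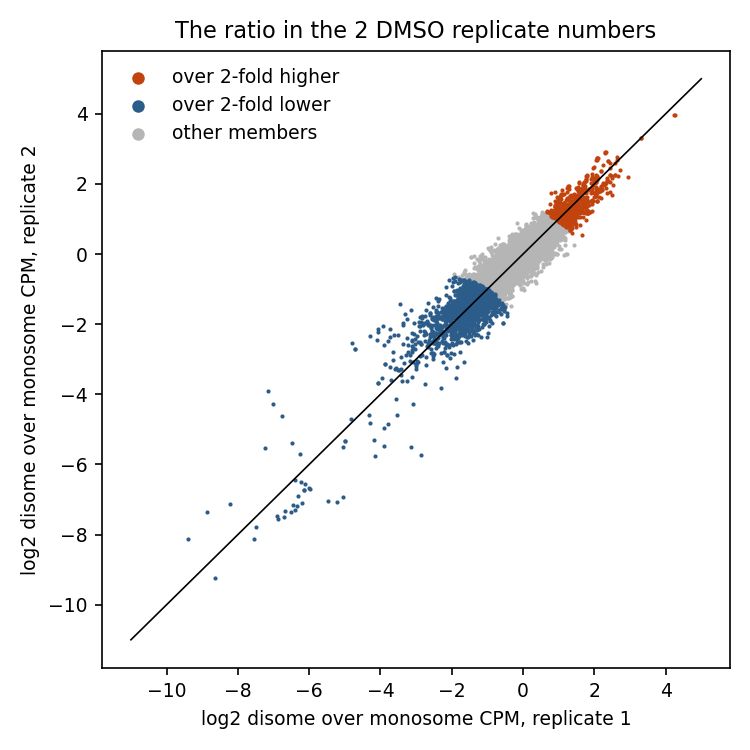
The log2 ratio of disome to monosome CPM in replicate 1 (horizontal axis) and replicate 2 (vertical axis) of the DMSO libraries, with 1 point per coding region, 0.5 counts added to each value, and the line of equal ratios. Points follow the line over the bulk of coding regions and scatter from it below about -4, where disome counts are few.

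By edgeR's quasi-likelihood test, 2799 of 9782 coding regions (28.6%) had more disome footprints relative to monosome footprints than the bulk, and 4001 (40.9%) had fewer, at a false discovery rate of 0.05. Over all 37793 aligned rows tested, 25.9% were called higher and 27.1% lower. With 1 coding region per block, 1151 of 3861 were higher and 1494 lower. The limit on monosome CPM acts on the lower term of the ratio, so values on both sides of it are given. The 657 regions at 10 to under 11 CPM, just inside the limit, had a median log2 ratio of -0.16, and the 807 at 9 to under 10 CPM, just outside it, had -0.09. At the length limit no such step was seen, with -0.87 for the 116 regions up to 4 codons above it and -0.87 for the 83 up to 5 codons below it.

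Among the calls, 764 coding regions (7.81%) were over 2-fold higher and 1759 (18.0%) over 2-fold lower. Over all rows tested these shares were 15.3% and 18%. The limit on monosome CPM takes out rows with few monosome footprints, so these shares are set in part by the choice of coding regions and are not read against each other. With 1 region per block, 309 of 3861 were over 2-fold higher and 610 over 2-fold lower.

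**Figure D2:**
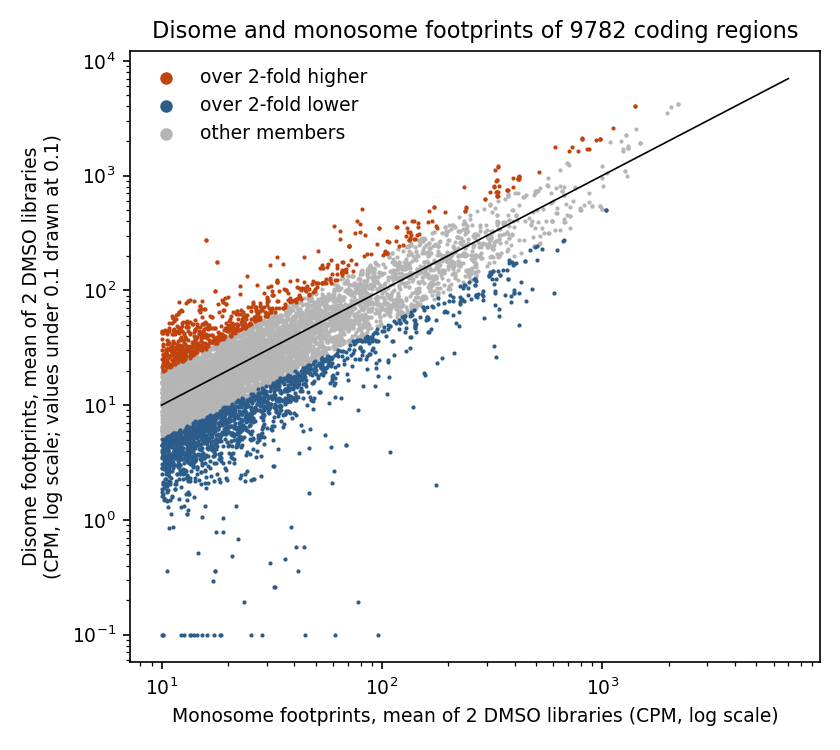
Mean disome CPM (vertical axis) against mean monosome CPM (horizontal axis) of 9782 coding regions in the 2 DMSO libraries of each kind, both on log scales, with the line of equal CPM. The 764 regions called over 2-fold higher lie above the line at every monosome level and the 1759 called over 2-fold lower lie below it, with regions under 0.1 disome CPM, 16 of them at 0, drawn at the lower edge.

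Over all lengths together, the median ratio was close to the same at each monosome level. The median log2 ratio was -0.14 for 4306 coding regions of 10 to 20 CPM, -0.12 for 3372 of 20 to 50 CPM, -0.13 for 1014 of 50 to 100 CPM, -0.15 for 789 of 100 to 300 CPM and -0.12 for 301 of 300 CPM or more. These classes differ in length, with a median of 379 codons in the first and 214 in the last. Raising the limit from 10 to 50 CPM moved the medians within length classes in both directions. At 100 to under 200 codons the median was -0.54 at 50 CPM or more, against -0.70 at 10 CPM or more, and at 200 to under 300 codons -0.33 against -0.48, while at 1000 codons or more it was 0.18 against 0.27. In the class of 300 CPM or more the median of disome counts was 3508 over both libraries, so counting error was small, and the 25th and 75th percentiles of the ratio were still -0.74 and 0.60. Of these 301 coding regions, 115 (38.2%) were called higher and 145 (48.2%) lower, against 28.6% and 40.9% of all 9782. Calls depend on the number of counts, which was larger in this class, so these shares are not read against each other. Mean disome levels reached 4176 CPM in this class, against a highest mean monosome level of 2219 CPM.

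Coding length did go with the ratio. Median log2 ratios were -0.70 for 2489 coding regions of 100 to under 200 codons, -0.48 for 1658 of 200 to under 300, -0.18 for 1963 of 300 to under 500, 0.12 for 2422 of 500 to under 1000 and 0.27 for 1250 of 1000 codons or more, beside -0.13 over all. Every step of this order was present in replicate 1, with medians of -0.73, -0.51, -0.22, 0.07 and 0.20 in plain CPM, and in replicate 2, with -0.70, -0.50, -0.20, 0.13 and 0.26. With 1 coding region per block the medians were -0.71, -0.46, -0.20, 0.12 and 0.26 in the same order. Spearman's rho of the ratio with length was 0.406 across 9782 coding regions and 0.394 across the 3861.

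The share called lower went down with length at each step, from 63.6% to 55.9%, 41.8%, 21.6% and 11.8%. At 1000 codons or more, 601 of 1250 coding regions (48.1%) were higher and 147 (11.8%) lower. At 100 to under 200 codons, 445 of 2489 (17.9%) were higher and 1583 (63.6%) lower. The share over 2-fold lower was 1.36% in the longest class and 38.2% in the shortest. The share over 2-fold higher did not follow length in the same way, at 7.11%, 4.95%, 6.32%, 8.13% and 14.7% from the shortest to the longest class. The shortest class was the most spread, with 25th and 75th percentiles of -1.36 and 0.04, against -0.08 and 0.69 in the longest. Monosome tables appear to leave 10 codons of each coding region uncounted that disome tables count, by the lengths they list. With counts divided by the length counted in each kind, the shortest class had a median of -0.81.

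**Figure D3:**
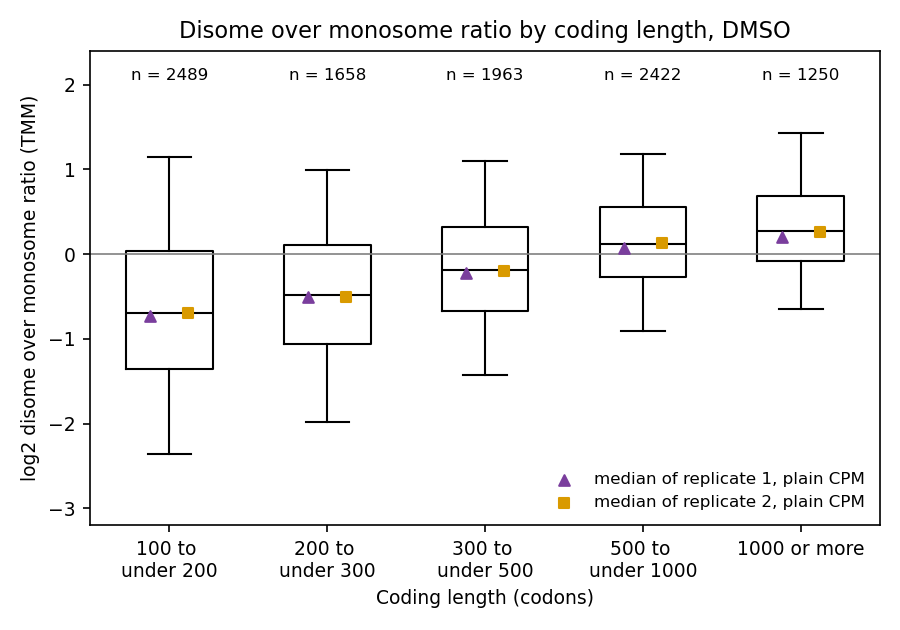
The log2 disome to monosome ratio (vertical axis) in 5 classes of coding length (horizontal axis), as boxes from the 25th to the 75th percentile with the median and whiskers from the 5th to the 95th percentile. Triangles and squares give the medians of replicate 1 and replicate 2, which rise from class to class, from about -0.7 at 100 to under 200 codons to above 0.2 at 1000 or more.

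Length and footprint density were tied, since short coding regions need a higher density to reach 10 CPM. In 4 equal groups by monosome CPM per 100 codons, the median log2 ratio was 0.18 in the lowest group, -0.06 and -0.48 in the middle ones and -0.37 in the highest. Within a length class the medians neither rose nor fell at each step of density, and in 4 of the 5 classes the second highest density group was the lowest. At 100 to under 200 codons, where the lowest group held no region, they were -0.49, -0.89 and -0.59 in 131, 1015 and 1343 regions. At 1000 codons or more they were 0.31, 0.22, -0.07 and 0.26, the last 2 from 54 and 23 regions. At 300 to under 500 codons they were -0.09, -0.15, -0.31 and -0.14. The exception was 500 to under 1000 codons, with medians of 0.10, 0.15, 0.10 and 0.12 from the lowest to the highest density, in 1187, 743, 304 and 188 coding regions. At 200 to under 300 codons, where the lowest group held no region either, they were -0.51, -0.62 and -0.37 in 560, 551 and 547 regions. Density is made from the same monosome counts as the ratio, so these medians are a description.

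RNA-seq of DMSO cells, which the ranking did not use, gave a common base for both kinds of footprint. Disome over mRNA and monosome over mRNA levels, per codon counted and relative to the median of all 9782 coding regions, were both set beside length. By the lengths listed, RNA-seq appears to leave 20 codons of each coding region uncounted that disomes count. Dividing by counted length lowers the disome over mRNA level most in short regions. How much of its order by length comes from that division was not measured. The log2 disome over mRNA median went up with length over the first 4 classes and was lower again in the longest, at -0.24, -0.15, 0.01, 0.17 and 0.06 from the shortest to the longest class. The log2 monosome over mRNA median went down with length, at 0.30, 0.11, 0.01, -0.21 and -0.47. Short regions pass the limit of 10 monosome CPM only at a higher monosome density. How much of this fall comes from that limit was not tested. With 1 coding region per block the medians were -0.26, -0.12, -0.01, 0.23 and 0.07 for disomes over mRNA, and 0.34, 0.13, 0.03, -0.18 and -0.46 for monosomes over mRNA. Set against mRNA, both kinds of footprint thus moved with length up to 1000 codons, in opposite directions, while from there to the longest class both medians went down. Poly(A) RNA-seq, monosome and disome fragments differ in length, and how reads with several possible origins were treated is not given in the sources used here.

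Seen the same way, the 764 coding regions over 2-fold higher were mostly high in disomes and not only low in monosomes. Their median log2 disome over mRNA level lay 1.16 above that of all coding regions, and their monosome over mRNA level at -0.31. Of them, 426 (55.8%) were over 2-fold above the median in disomes over mRNA, against 15.0% of the 7259 other coding regions, and 191 (25%) were below 0.5 times the median in monosomes over mRNA, against 9.02%. In 83 (10.9%) disomes over mRNA were not above the median at all. These regions had a median length of 497.5 codons, and 49.8 disome CPM against 18.4 monosome CPM at the median.

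The 1759 coding regions over 2-fold lower were mostly low in disomes. Their median log2 disome over mRNA level was -1.25 and their monosome over mRNA level 0.11, both from the median of all coding regions. Of them, 1102 (62.6%) were below 0.5 times the median in disomes over mRNA and 228 over 2-fold above it in monosomes over mRNA. They had a median length of 189 codons, against 442 in the 7259 other coding regions, and 6.57 disome CPM against 19.9 monosome CPM at the median. Both groups were chosen by the ratio, which shares its disome and monosome counts with these levels, so the values describe the groups and test nothing.

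**Figure D4:**
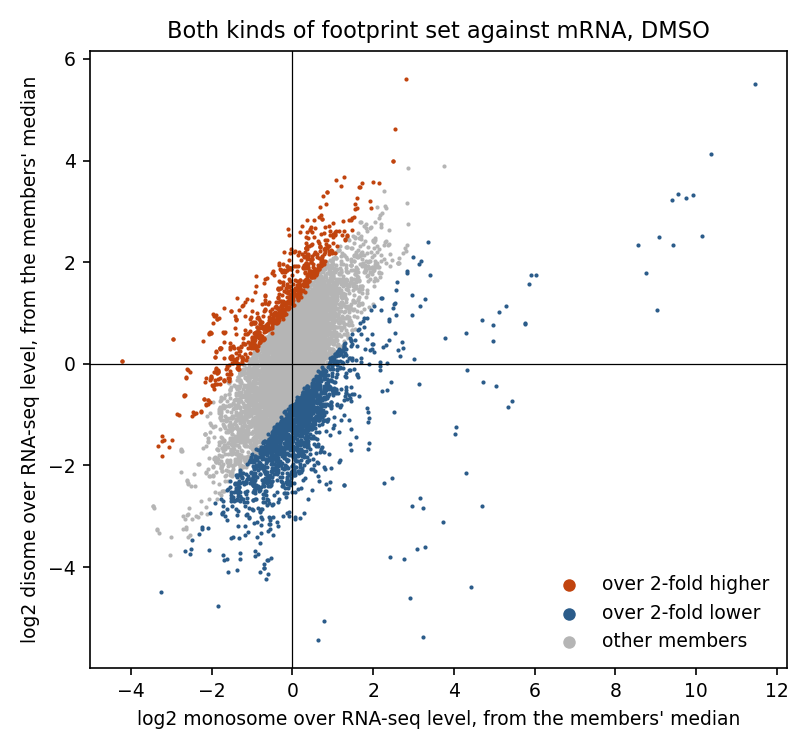
Log2 disome over RNA-seq level (vertical axis) against log2 monosome over RNA-seq level (horizontal axis) of 9782 coding regions with DMSO, per codon counted, each from the median of all of them and with 0.5 counts added per library. Regions over 2-fold higher run along the upper left edge and those over 2-fold lower along the lower right, and the points far to the right are regions with almost no RNA-seq counts.

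At the top of the ranking low monosome levels were common. By a rule of 1 region per block, a call and the same sign in both replicate numbers, the 12 highest had log2 ratios of 2.27 to 4.14 and spanned 114 to 2231 codons. In 10 of these 12 the monosome over mRNA level lay below 0.5 times the median, and in 5 of 12 the disome over mRNA level lay over 2-fold above it. Of the 12, 7 came from stretches of at least 5 consecutive matched rows, where the match of the annotations is the more secure. Of all 9782 coding regions, 6662 came from such stretches. The single regions described below, high or low, were picked by this ratio in these same 4 libraries. Gaps between their libraries, and their p-values, thus come with the choice and are no separate support.

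The highest coding region was uc001ura.4, of 161 codons. It had 869 and 1376 disome counts, or 281 and 267 CPM, against 428 and 597 monosome counts, or 14.6 and 17.1 CPM. Both disome libraries lay far above both monosome libraries, with a log2 ratio of 4.14 (SE 0.10) and an adjusted p of 1.15e-30 from the edgeR quasi-likelihood fit over all rows. Its RNA-seq levels were 245 and 295 CPM, so disome CPM was close to RNA-seq CPM and it was the monosome CPM that stood apart: its log2 disome over mRNA level was 0.06 and its log2 monosome over mRNA level -4.22 from the median. Its row matched as a lone pair with no matched neighbour in the alignment.

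The next was uc001sjf.4, of 116 codons, with 602 and 814 disome counts (195 and 158 CPM), against 580 and 552 monosome counts (19.8 and 15.8 CPM). The groups did not overlap in CPM, which its choice by this ratio made likely. Its log2 ratio was 3.33 (SE 0.11), with an adjusted p of 6.16e-26 from that edgeR fit. Here too RNA-seq was high, at 113 and 131 CPM, with log2 levels over mRNA of 0.48 for disomes and -2.96 for monosomes. Whether monosome reads of these 2 regions were lost to other copies of their sequence was not tested.

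The region that followed in this order, of 114 codons, differed from both. It had 1601 and 2629 disome counts (518 and 510 CPM), against 2434 and 2744 monosome counts (83.1 and 78.7 CPM), while RNA-seq gave only 9.94 and 10.4 CPM. Both kinds of footprint were thus far above mRNA, with log2 levels of 5.61 for disomes and 2.81 for monosomes from the medians. Its log2 ratio was 2.702 (SE 0.09). Like that of uc001ura.4, its row matched as a lone pair with no matched neighbour, and whether the match is right was not tested. A region of 149 codons, the last of the 12, was the other one in which monosomes were not low, with log2 levels over mRNA of 3.09 for disomes and 0.68 for monosomes. It had 121 and 95.5 disome CPM against 22.4 and 23.0 monosome CPM.

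Long coding regions were also among the 12. Those of 2231, 2134 and 2100 codons had log2 ratios of 2.695, 2.51 and 2.66, and those of 2231 and 2100 codons had much the same counts, with 215 and 480 against 208 and 460 in disomes, and 407 and 431 against 402 and 421 in monosomes. Whether the pair share reads was not measured. The region of 2231 codons had 69.5 and 93.2 disome CPM, against 13.9 and 12.4 monosome CPM. The lower of its disome values lay far above the higher of its monosome values. Its log2 disome over mRNA level was 0.94 and its log2 monosome over mRNA level -1.93 from the medians, so both terms contributed.

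At the bottom of the ranking, 16 coding regions were listed at 0 in both disome libraries although their monosome levels passed 10 CPM. Of these 16, 10 had RNA-seq means under 1 CPM. Only 25 of the 9782 coding regions had so little mRNA. All 25 were over 2-fold lower in the ratio, against 18.0% of the 9782 and 18% of all rows tested. The limit of 10 monosome CPM lets such a region in only with many monosome footprints for its mRNA, so this count is a description. These coding regions thus had monosome footprints with next to no poly(A) RNA in the rows matched to them. Whether the reads belong to a copy elsewhere, or the annotations were matched wrongly there, was not tested. Leaving the 25 out changed the count of lower calls to 3976 and left the 2799 higher calls as they were.

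The lowest by the same rule was uc001wwg.5, of 215 codons, with 0 and 0 disome counts, against 890 and 937 monosome counts (30.4 and 26.9 CPM). Against a floor of 3 counts over both disome libraries it was at least 78.7-fold lower, with an adjusted p of 1.42e-18 from that edgeR fit. RNA-seq gave 0 and 1 counts. The next, uc001ziu.2, of 378 codons, had 0 and 0 disome counts against 556 and 630 monosome counts (19.0 and 18.1 CPM), was at least 50.9-fold lower by the same floor, with an adjusted p of 2.58e-16 from edgeR, and had 1 and 1 RNA-seq counts. Both therefore rest on monosome libraries alone.

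The 12 lowest spanned 132 to 661 codons, 8 of them were at 0 in disomes and 7 had RNA-seq means under 1 CPM. Of these, 6 came from stretches of at least 5 consecutive matched rows, against 6662 of all 9782 coding regions. The match of the others is less secure. In 11 of the 12 the monosome over mRNA level lay over 2-fold above the median. The exception, of 216 codons, had ample mRNA, at 26.9 and 25.7 CPM, and 50.1 and 38.0 monosome CPM. It had 3 and 1 disome counts, against 1468 and 1325 monosome counts. Its log2 monosome over mRNA level was 0.62 and its log2 disome over mRNA level -5.43 from the medians, so here the low ratio lay mostly on the disome side. A low disome over mRNA level was not particular to it. The regions of 339 and 661 codons, both at 0 in disomes, had -3.61 and -3.85, beside 3.28 and 2.76 for monosomes. In 5 of the 12 the disome over mRNA level was computed as over 2-fold above the median. These 5 had at most 1 disome count and at most 1 RNA-seq count per DMSO library. Their levels are thus set largely by the small count added to each library, and do not show that disomes were high.

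The girolline libraries, also outside the ranking, showed how far the order held in other samples. Across the 9782 coding regions, Spearman's rho of the DMSO ratio was 0.847 with the ratio at 1 µM and 0.492 with that at 10 µM. Of the 764 coding regions over 2-fold higher with DMSO, all 764 had a plain log2 CPM ratio above 0 at 1 µM and 677 at 10 µM, with median ratios of 1.25 with DMSO, 0.99 at 1 µM and 0.53 at 10 µM. Of the 7259 other coding regions, 3537 were above 0 at 1 µM and 3120 at 10 µM. Of the 1759 over 2-fold lower, 1731 were below 0 at 1 µM and 1403 at 10 µM, and their median ratio was -1.47 in DMSO libraries, -1.17 at 1 µM and -0.72 at 10 µM. The groups were picked for their DMSO values, and how much of the narrowing comes from that choice was not tested.

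Among the 12 highest, single regions kept their place to different degrees. In plain CPM, the log2 ratio of uc001ura.4 was 4.11 with DMSO, 4.51 at 1 µM and 4.62 at 10 µM, and that of uc001sjf.4 was 3.31, 3.08 and 2.67 in the same order. The region of 114 codons had 2.67, 2.33 and 1.91. The 12 highest together ran from 2.24 to 4.11 with DMSO, from 1.79 to 4.51 at 1 µM and from 0.21 to 4.62 at 10 µM, and the lowest value at 10 µM was that of the region of 2134 codons. The 12 lowest lay between -7.83 and -6.25 with DMSO, between -8.30 and -5.05 at 1 µM and between -8.85 and -5.64 at 10 µM. Of these 12, 8 had 0 disome counts in both DMSO libraries, and none had more than 3 in either. The value of -8.85 at 10 µM came from a region with 0 disome counts there. These values are thus set largely by the small count added to each library and by monosome counts. Whether the 12 lowest kept their place cannot be read from them.

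The order by length became flatter with dose. From the shortest to the longest class, median log2 CPM ratios were -0.73, -0.51, -0.21, 0.08 and 0.24 with DMSO, -0.44, -0.26, -0.07, 0.06 and 0.07 at 1 µM, and -0.18, -0.09, -0.06, -0.10 and -0.21 at 10 µM. Spearman's rho with length was 0.245 at 1 µM and 0.0237 at 10 µM across the same 9782 coding regions. With 1 library of each kind per dose, the change of the order with dose has no replicate check.

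**Figure D5:**
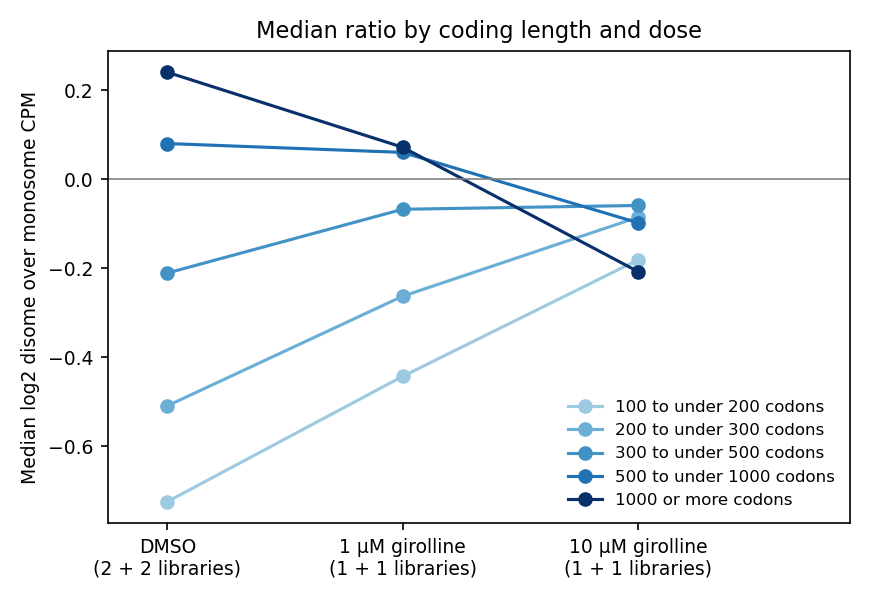
Median log2 ratio of disome to monosome CPM (vertical axis) with DMSO and at 1 and 10 µM girolline (horizontal axis), with 1 line per class of coding length. The medians lie between -0.73 and 0.24 with DMSO in order of length, and between -0.21 and -0.06 at 10 µM with no such order.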

How the data were processed

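Per the submitters' processing notes the build was hg38 and CASAVA 1.8 and STAR 2.7.0a were used, in roles the notes leave out; the counter, the annotation and the treatment of reads matching several places are not given in the sources used here. The authors deposited raw counts per transcript, with other values, the lengths, that were read as codons from their range. Disome and RNA-seq tables use UCSC IDs and monosome tables Ensembl IDs. Coding rows were aligned in file order on length (the monosome value plus 10), by longest common subsequence. The members, lists and comparisons were chosen with earlier results of these data known.

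The test was edgeR's (version 4.0.16 under R 4.3.3; TMM, filterByExpr, quasi-likelihood, Benjamini-Hochberg over 37793 rows, 2 residual degrees of freedom), after a check on simulated data. The common dispersion gave a coefficient of variation of 5.30%. Ratios shown as plain CPM have 0.5 counts added. CPM uses each table's total; reads counted in several isoforms make totals exceed reads, and by a different amount in each annotation. Named regions were the 12 highest and 12 lowest called, 1 per block, with the same sign in both replicate numbers, of which the first 2 are given by ID. Alternatives covered scaling, DESeq2 1.42.0, filters, isoforms, alignment, counted length, each library left out and a replicate block.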

Additional observations from a re-analysis of the deposited data

How the results depend on the processing

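The direction of each length class and of the 4 regions given by ID was the same under every alternative that could be run. With library totals in place of TMM, the medians of the 3 shortest classes were -0.73, -0.51 and -0.21. With no filter on low counts they were -0.73, -0.51 and -0.21, and with counts per length counted -0.81, -0.55 and -0.22. With 1 pair per block there were 1151 higher and 1494 lower calls, and medians of -0.46 at 200 to under 300 and -0.20 at 300 to under 500 codons. Aligned runs of at least 5 gave -0.49 and -0.20 in these classes and dropped uc001ura.4, uc001sjf.4 and uc001ziu.2. A monosome mean of at least 1 CPM gave 7388 higher and 8140 lower calls among 28675 regions, with medians of -0.54, -0.31, -0.065, 0.26 and 0.39 by length, and at least 50 CPM gave 671 and 964 among 2104, with -0.54 and -0.33 in the 2 shortest classes and 0.18 in the longest. At least 300 codons left 1491 lower calls, and calls over 2-fold were 764 and 1759. Chosen after seeing the data, an RNA-seq mean of at least 1 CPM gave -0.48 at 200 to under 300 codons, and monosome over RNA-seq levels within 2-fold of the median gave -0.49 there and -0.16 at 300 to under 500.

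With 1 library left out, higher calls ran from 2000 to 2672, lower calls from 3458 to 3901, and the class medians from -0.74 to -0.71, -0.51 to -0.50, -0.22 to -0.20, 0.077 to 0.14 and 0.21 to 0.29. DESeq2 called 2237 higher and 3374 lower. The labels do not say that a shared number pairs libraries, and same-numbered deviations had a correlation of 0.05; with the replicate block there were 2689 higher and 3914 lower calls, and no call on a region given by ID changed. The 4 libraries left counting error widest in disomes. Gene lists were not run, since no IDs had symbols.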
